A study of Mus musculus with 6 samples.

Results

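The genes described here are 42 antioxidant, glutathione and ferroptosis genes, picked by symbol out of the 55471 genes in the authors' deposited table. They cover the transcription factor NRF2 (gene Nfe2l2) with its regulator and targets, the glutathione and thioredoxin systems, the enzymes that remove superoxide and peroxides, the metallothioneins, and regulators of ferroptosis. The libraries were made from hippocampus of wild-type (WT) mice 24 hours after cerebral ischemia reperfusion, a stroke model that blocks the brain's blood supply for a time and then reopens it. There were 3 libraries from mice given Visudyne and 3 from mice given saline, and the ischemia and the genotype were common to both groups. Visudyne holds verteporfin, a dye that becomes toxic in light, and the series used it for ablation of the lymphatic vessels of the meninges. The sources used here do not give the age or sex of the mice, or whether each library came from its own mouse, so p-values measure the spread between these libraries, which may be technical.

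The columns do not name the treatment on top of the fold change. Every direction below is therefore the sign of the deposited value, called the positive and the negative side. If the groups were taken in alphabetical order the positive side would be Visudyne, but no file says so. The authors' deposited table gives each gene a mean normalized count over the 6 libraries, a log2 fold change shrunken toward 0, its error and p-values. A pair of quantities was worked out from it. The first is an unshrunken log2 fold change with its standard error. The second, for genes with a mean under 350, is the whole number of reads in each library, found as the combination of 6 read numbers that gives the deposited mean, p-value, fold change and error together. The positive-side libraries are called P1, P2 and P3, with size factors of 1.20, 1.06 and 0.584. The negative-side libraries are called N1, N2 and N3, with size factors of 1.52, 1.22 and 0.754. These reads are reconstructed from the deposited values, and none of the libraries can be tied to a sample name or a treatment. The 12 hippocampal neuron markers were all measured, with summed mean counts of 120604, and none stood at 0.

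NRF2 is held in the cytoplasm and sent for degradation by KEAP1. Oxidants and electrophiles loosen that hold, and NRF2 then enters the nucleus, pairs with a small MAF protein and binds antioxidant response elements beside genes for glutathione synthesis, thioredoxin recycling and quinone reduction. Ferroptosis is a form of cell death in which iron drives the peroxidation of membrane lipids. The lipid peroxidase GPX4 holds it back with glutathione, which needs cystine brought in by the exchanger of SLC7A11 and SLC3A2. Reperfused brain is a setting in which oxidants form in quantity, and astrocytes supply much of its glutathione.

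The core letters of the antioxidant response element, TGACNNNGC, were searched on both strands of the RefSeq promoters of build GRCm38.p6, each running from 250 bases before to 50 bases after a gene's start. Promoters of 37 of the 42 genes were in that table, and 11 of the 37 genes (29.7%) held a match, against 3781 of 27025 genes (14.0%) in the whole table. The genes with a match were Nfe2l2 itself, G6pdx, Gclm, Gstm5, Mgst1, Mt2, Prdx1, Sod1, Srxn1, Txnrd1 and Ucp2. A match describes letters and not a bound site. The windows below are those of the regulator, of 4 genes of different roles and of Ucp2, which had the second smallest p. They run 5′ to 3′ along the gene's own strand, and the capitals mark the motif, which reads GCNNNGTCA where it lies on the other strand.
Nfe2l2, chr2:75704885-75704913, minus strand: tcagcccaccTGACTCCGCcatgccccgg
Gclm, chr3:122245413-122245441, plus strand: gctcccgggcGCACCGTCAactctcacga
G6pdx, chrX:74428919-74428947, minus strand: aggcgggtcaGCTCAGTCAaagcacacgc
Prdx1, chr4:116685456-116685484, plus strand: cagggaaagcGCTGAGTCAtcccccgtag
Mt2, chr8:94172529-94172557, plus strand: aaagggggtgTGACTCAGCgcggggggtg
Ucp2, chr7:100493282-100493310, plus strand: ccctggctccGCCTCGTCAcgccacgccc
The promoter of Gpx3 in that table held no match in its 300 bases.

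Gpx3, the secreted plasma glutathione peroxidase, was the member that passed the test over all genes, and it lay on the positive side. Ucp2, an uncoupling protein of the mitochondrial inner membrane, came next on the same side without passing. Of the 42 genes, 1 had an adjusted p under 0.05 in the authors' deposited table, and over all 18603 tested genes 0.328% were called. At an unadjusted p under 0.05 there were 4 members, Gpx3 and Ucp2 on the positive side and Gss and Mt3 on the negative side. Over all tested genes 6.81% passed that p, 3.92% positive and 2.89% negative, and 4 of 42 members is 9.52%, a share near that background. The unshrunken log2 fold changes of the members ran between -0.45 and 1.10, with a median of 0.09, beside a median of 0.0026 over all tested genes. They were positive for 29 members and negative for 13, beside 9399 and 9204 of all tested genes. Of the members, 30 (71.4%) lay within 0.25 of 0, beside 64.3% of all tested genes. The 95% interval of the fold change stayed inside a 2-fold difference for 38 members, all but Gpx3, Nqo1, Osgin1 and Ucp2, and inside 0.5 on the log2 scale for 21. For 9 members a second estimate of the standard error was over 10% away from the first or could not be had, and their intervals are less sure (Gss, Gpx1, Gpx4, Prdx2, Prdx5, Prdx6, G6pdx, Gstm1 and Gstm5).

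**Figure D1:**
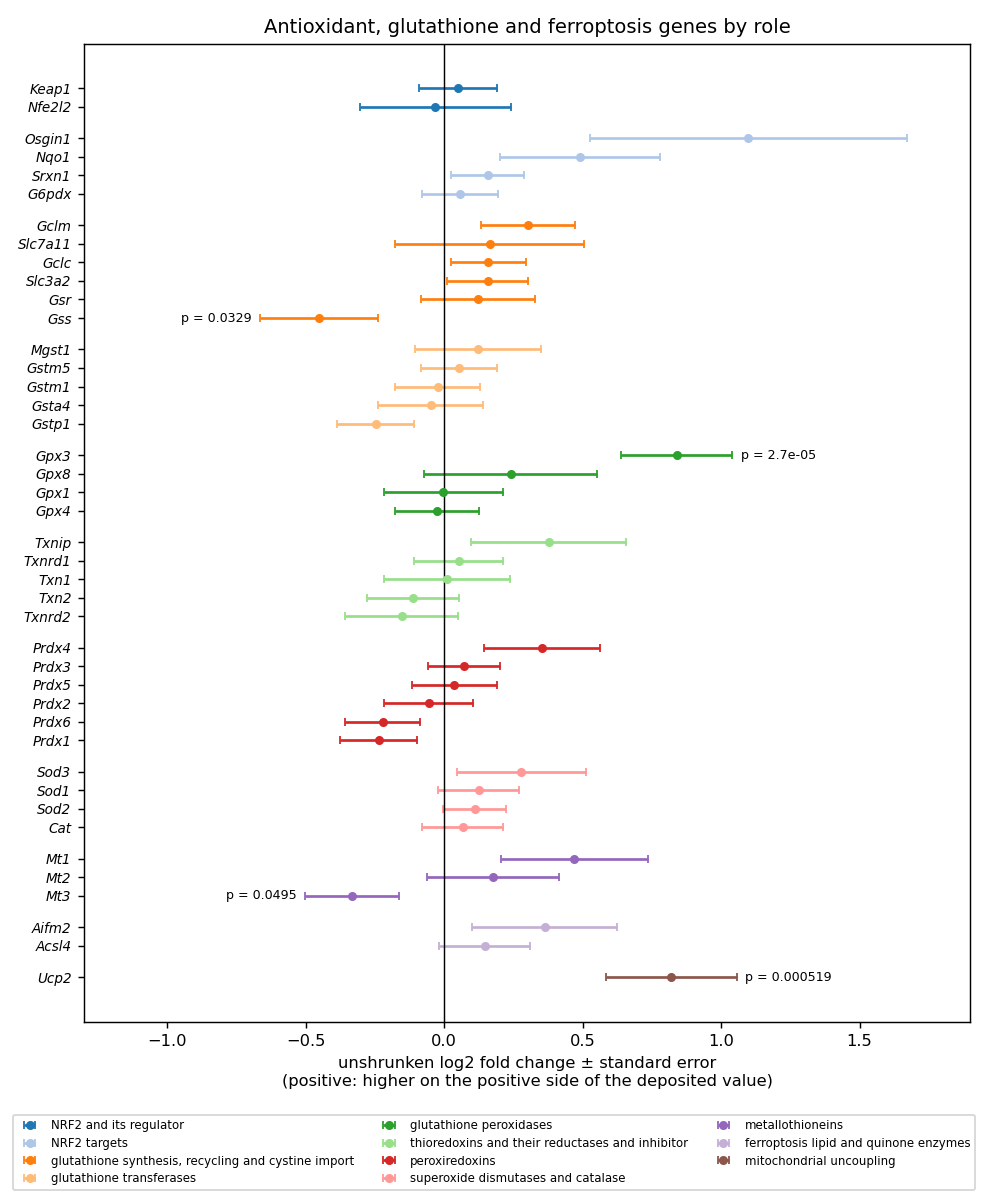
Unshrunken log2 fold change of each of the 42 genes (x axis) with its standard error as a bar, in blocks by role; positive values mean higher on the positive side of the deposited value. Gpx3 and Ucp2 lie farthest from 0 for their error, at 0.84 and 0.82, and most other genes lie within 0.25 of 0.

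The levels of the 42 genes spanned more than 3 orders of magnitude per kb of annotated exon. Together they held 0.477% of the summed mean counts of all genes. The 3 metallothioneins, small cysteine-rich proteins that bind zinc and copper, took 30.5% of that, the peroxiredoxins 20.4% and the glutathione transferases 16.4%. Mt2 led with 16327 normalized counts per kb, followed by Mt1 with 12356 and Mt3 with 10748. Gpx4 stood sixth with 3708 per kb, while the called gene Gpx3 stood at rank 33 with 146 per kb. At the low end were Slc7a11 with 31.6, Aifm2 with 34.0 and Osgin1 with 7.51 normalized counts per kb. Lengths are the union of all annotated exons, so a gene with rare long transcripts reads low on this scale.

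**Figure D2:**
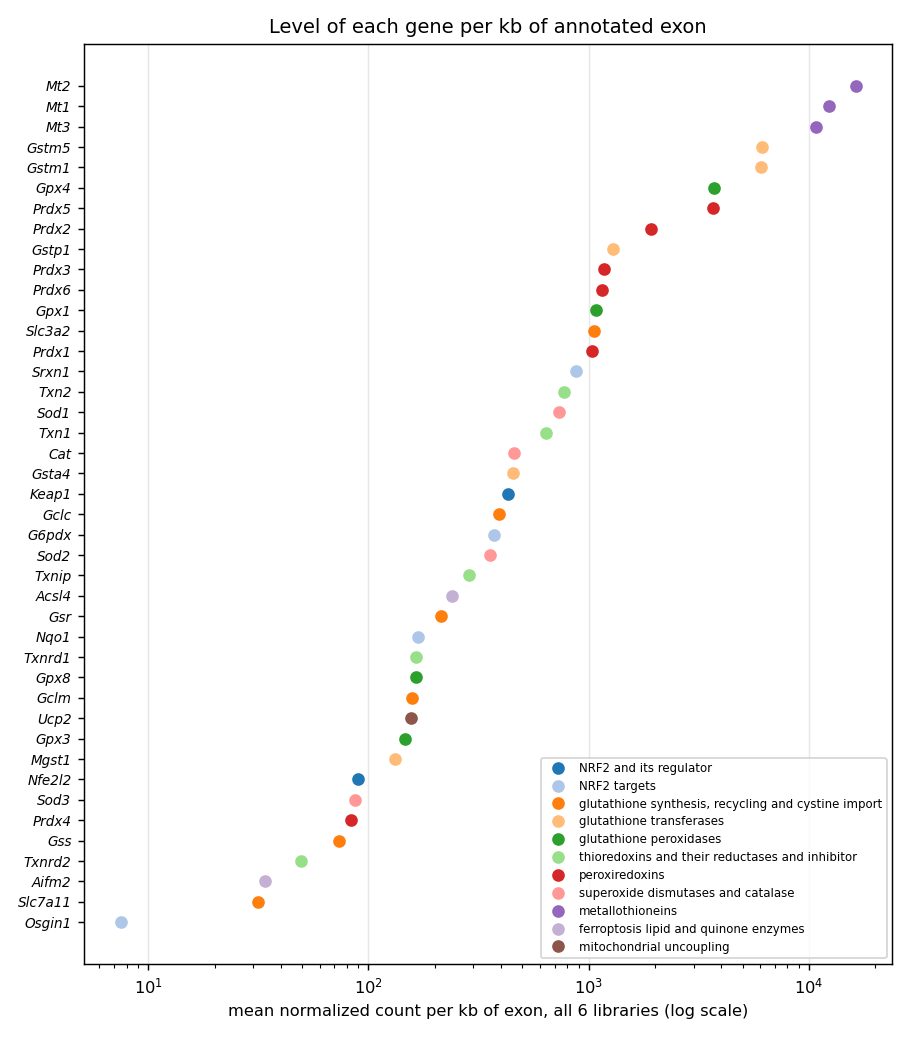
Mean normalized count per kb of annotated exon over all 6 libraries (x axis, log scale) for each of the 42 genes, coloured by role. The 3 metallothioneins lie at 10748 per kb or more and Osgin1 lies at 7.51 per kb.

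Nfe2l2, which encodes NRF2, showed no difference between the sides that its spread could separate. Its normalized counts were 264, 504 and 236 in P1, P2 and P3, against 345, 343 and 342 in N1, N2 and N3. P2 was the highest of the 6 libraries and P1 and P3 the lowest, so the sides overlapped, while the negative side was nearly level. The means were 335 ± 147 on the positive side and 343 ± 1.25 on the negative side (SD, n = 3 each). An SD of 1.25 is less than counting error alone would usually leave. These reads are the best fitting of 100 combinations that gave the mean, so they are less sure than those of a gene with 1 combination. The unshrunken log2 fold change was -0.03 ± 0.27 (SE). Without P2 the log2 ratio of the means was -0.46, and with all libraries it was -0.04. Keap1, whose protein is the adaptor that marks NRF2 for degradation, averaged 2016 normalized counts (authors' deposited table) and had an unshrunken log2 fold change of 0.05 ± 0.14.

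The 4 genes listed as NRF2 targets all had positive values, and none passed an unadjusted p of 0.05. In a list of 29 other NRF2 regulators and targets, described below, 14 values were positive and 15 negative. Nqo1, a quinone reductase widely used as a readout of NRF2, had 236, 462 and 212 normalized counts in P1, P2 and P3, against 235, 219.9 and 196 in N1, N2 and N3. P2 was high, and the other 5 libraries lay between 196 and 236, with the sides overlapping. The means were 304 ± 138 on the positive side and 217 ± 19.6 on the negative side (SD, n = 3 each). Its unshrunken log2 fold change was 0.49 ± 0.29. The log2 ratio of the means was 0.48 with all libraries and 0.05 without P2.

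Osgin1, an oxidative stress response gene induced by NRF2, was the scarcest member, with 27, 44 and 10 reads in P1, P2 and P3, against 14, 22 and 9 in N1, N2 and N3. In normalized counts these are 22.6, 41.7 and 17.1 on the positive side, against 9.23, 18.0 and 11.9 on the negative side. Again P2 was the highest, and P3 lay below N2. The unshrunken log2 fold change was 1.10 ± 0.57, the largest among the members, with a p of 0.0552 in the authors' deposited table. The log2 ratio of the means was 1.06 with all libraries and 0.60 without P2. Srxn1, which restores over-oxidized peroxiredoxins, had an unshrunken log2 fold change of 0.16 ± 0.13. G6pdx, the X-linked enzyme that feeds the pentose phosphate pathway and its NADPH, had 0.06 ± 0.14, and a related copy elsewhere in the genome may share its reads.

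Among the genes of glutathione synthesis, recycling and cystine import, 5 of 6 had positive values and Gss had a negative one. Gss, glutathione synthetase, joins glycine in the last step of synthesis. In the authors' deposited table its mean was 435 normalized counts, its shrunken log2 fold change -0.0054 ± 0.026 and its p 0.0329, with an adjusted p of 0.643. The unshrunken log2 fold change was -0.45 ± 0.21, and it was -0.54 when the error was taken from the deposited fold change and p. Gclm and Gclc encode the modifier and catalytic subunits of the rate-limiting ligase, one step before Gss. Gclm stood at 0.30 ± 0.17, with a p of 0.0747 in the authors' deposited table, and Gclc at 0.16 ± 0.14. Gsr, which reduces oxidized glutathione, had 0.12 ± 0.21.

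Slc7a11 and Slc3a2, the light and heavy chains of the cystine-glutamate exchanger, differed in level, with 31.6 and 1055 normalized counts per kb, and had fold changes of the same sign. Slc7a11 averaged 439.7 normalized counts (authors' deposited table) and had an unshrunken log2 fold change of 0.16 ± 0.34. The reads per library of Slc7a11 were not sought, since its mean is above 350. Slc3a2, which also serves other amino acid transporters, had a mean of 3725 normalized counts there and 0.16 ± 0.15. Both intervals include 0.

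Gpx3 had normalized counts of 320.0, 346 and 358 in P1, P2 and P3, against 209.6, 208 and 149 in N1, N2 and N3. All positive-side libraries lay above all negative-side libraries, and within the positive side they differed little. The means were 341 ± 19.3 on the positive side and 189 ± 34.9 on the negative side (SD, n = 3 each). In the authors' deposited table its shrunken log2 fold change was 0.73 ± 0.22, with a p of 2.70e-05 and an adjusted p of 0.0191. The unshrunken value was 0.84 ± 0.20, a 1.79-fold difference. The adjusted p was 0.0798 after z was divided by its SD over all genes, and 0.199 with the Benjamini-Yekutieli adjustment, so the call did not hold under either. Leaving out any 1 library kept the log2 ratio of the means between 0.71 and 0.93. In bulk tissue more cells of a type and more RNA per cell cannot be told apart. Among the 9 members with reads per library, Gpx3 and Prdx4 were those whose sides did not overlap, where 16.1% of 2175 genes with means of 20 to 60 had sides that did not overlap. All but 1 of the 9 have means above that range.

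No other glutathione peroxidase passed an unadjusted p of 0.05. Gpx4, the peroxidase that reduces lipid hydroperoxides in membranes, averaged 6392 normalized counts (authors' deposited table) and had an unshrunken log2 fold change of -0.03 ± 0.15. Its 95% interval ran between -0.32 and 0.27. Gpx1, the abundant cytosolic form, had -0.0036 ± 0.22. Gpx8, a membrane enzyme of the endoplasmic reticulum, had 196, 227 and 135 normalized counts in P1, P2 and P3, against 121, 234 and 119 in N1, N2 and N3. N2 was the highest and N3 the lowest, and the sides overlapped. Its unshrunken log2 fold change was 0.24 ± 0.31, with a 95% interval between -0.37 and 0.85. Leaving out 1 library put the log2 ratio of its means between 0.07 without P2, N1 or N3 and 0.63 without N2, and with all libraries it was 0.24.

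The glutathione transferases, which couple glutathione to electrophiles, split into 2 positive and 3 negative values, none past an unadjusted p of 0.05. Gstp1 had the value farthest from 0, -0.25 ± 0.14, and Gsta4, which clears the lipid aldehyde hydroxynonenal, had -0.05 ± 0.19. Gstm1 and Gstm5, both among the 5 highest genes per kb, had -0.02 ± 0.15 and 0.06 ± 0.14, with errors that are less sure. Members of the mu and pi classes have close copies beside them in the genome and may share reads. Mgst1, a membrane-bound transferase, had 229.8, 324 and 277 normalized counts in P1, P2 and P3, against 239.9, 316 and 206 in N1, N2 and N3. The highest library of each side was close to that of the other, and the sides overlapped.

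**Figure D3:**
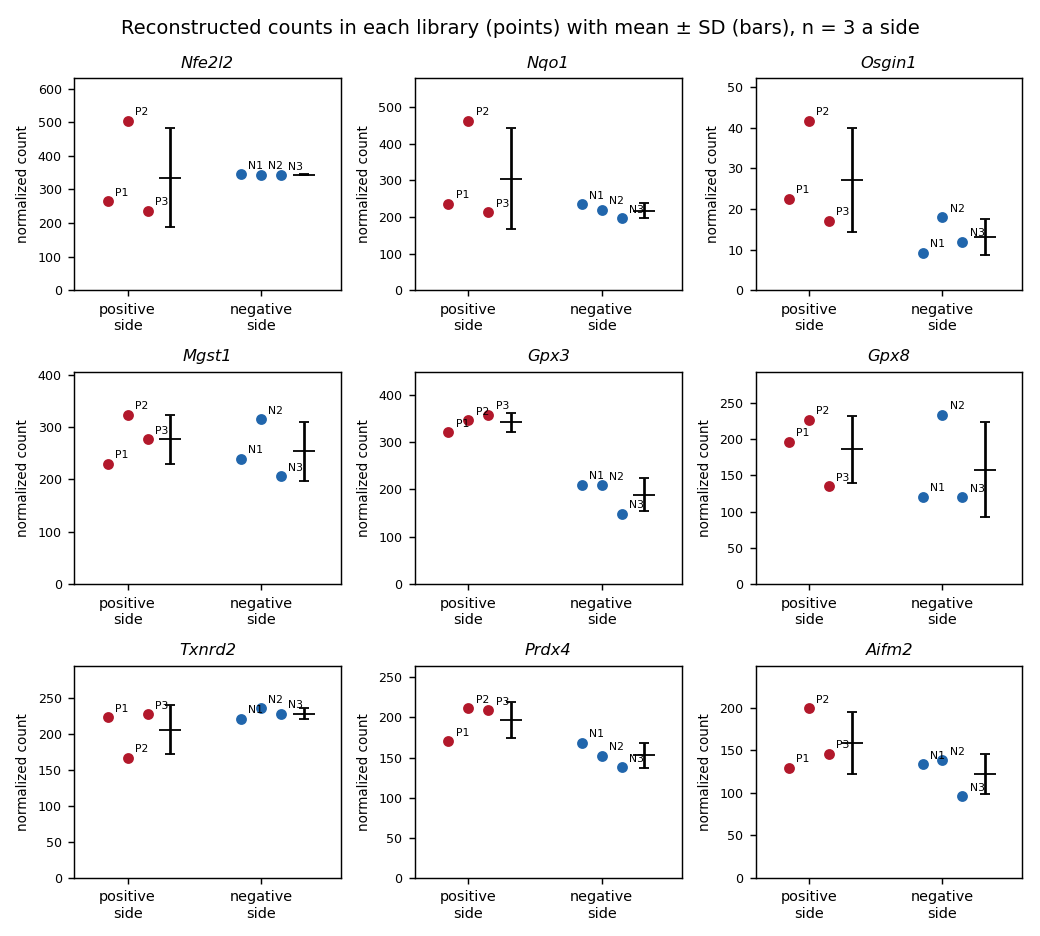
Normalized counts (y axis, from 0) of the 9 genes whose reads per library could be worked out; points are the libraries P1 to P3 of the positive side and N1 to N3 of the negative side, and bars give the mean ± SD of 3 libraries. Gpx3 and Prdx4 are separated between the sides, while P2 alone is high for Nfe2l2, Nqo1 and Osgin1. The reads of Nfe2l2 are less sure.

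The thioredoxin genes showed 3 positive and 2 negative values, and none passed an unadjusted p of 0.05. Txn1 and Txn2 encode the cytosolic and mitochondrial thioredoxins, and their unshrunken log2 fold changes were 0.01 ± 0.23 and -0.11 ± 0.16. The reductases that recharge them had 0.05 ± 0.16 for Txnrd1 and -0.15 ± 0.20 for Txnrd2. Txnrd2 had 223, 167 and 228 normalized counts in P1, P2 and P3, against 221, 235 and 228 in N1, N2 and N3. Here P2 was the lowest library and the other 5 were nearly level. Txnip, the inhibitor that binds reduced thioredoxin, had 0.38 ± 0.28.

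Peroxiredoxins reduce hydrogen peroxide with electrons from thioredoxin, and their 6 genes split into 3 positive and 3 negative values. Prdx4, the form of the endoplasmic reticulum, had 170.4, 211 and 209 normalized counts in P1, P2 and P3, against 169, 152 and 138 in N1, N2 and N3. All positive-side libraries were above all negative-side libraries, but P1 and N1 were nearly equal. The means were 197 ± 22.9 on the positive side and 153 ± 15.4 on the negative side (SD, n = 3 each). The unshrunken log2 fold change was 0.35 ± 0.21, with a p of 0.0937 in the authors' deposited table. Prdx1 and Prdx6, both over 10 times as high per kb, had -0.24 ± 0.14 and -0.22 ± 0.13, and Prdx2, Prdx3 and Prdx5 lay within 0.1 of 0.

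The superoxide dismutases and catalase all had positive values between 0.07 and 0.28, with none past an unadjusted p of 0.05. Sod3, the extracellular enzyme, had the largest at 0.28 ± 0.23. Sod1 in the cytosol, Sod2 in mitochondria and Cat in peroxisomes had 0.12 ± 0.15, 0.11 ± 0.11 and 0.07 ± 0.15. The error of Sod2 was the smallest of the 42.

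The metallothioneins did not share a direction. Mt1 and Mt2, which zinc, glucocorticoids and injury are known to induce, had unshrunken log2 fold changes of 0.47 ± 0.27 and 0.18 ± 0.24. Mt3, a form abundant in brain, had -0.33 ± 0.17. In the authors' deposited table Mt3 had a mean of 11458 normalized counts, a shrunken log2 fold change of -0.0075 ± 0.027, a p of 0.0495 and an adjusted p of 0.731. The means of Mt1 and Mt2 there were 15396 and 9600.5 normalized counts. The fold changes of Mt1 and Mt3 were not tested against each other.

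Ucp2 had the second smallest p of the 42 genes. In the authors' deposited table its mean was 1092 normalized counts, its shrunken log2 fold change 0.65 ± 0.28, its p 0.000519 and its adjusted p 0.0909. Over all tested genes 0.624% had an adjusted p under 0.1. The unshrunken value was 0.82 ± 0.24, a 1.77-fold difference. Ucp2 is expressed in microglia, among other cells. The 12 microglia markers all had negative values, with a median of -0.42, and 9 of them passed an unadjusted p of 0.05, beside 6.81% of all tested genes. Their summed fitted level was 12105 on the positive side, against 16159 on the negative side, and the part of microglia in the value of Ucp2 was not tested.

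The ferroptosis regulators in the set beside Gpx4 and the exchanger are Acsl4 and Aifm2. Acsl4, which loads membranes with the polyunsaturated lipids that peroxidize, averaged 1296 normalized counts (authors' deposited table) and had an unshrunken log2 fold change of 0.15 ± 0.16. Aifm2, also called FSP1, reduces coenzyme Q at the plasma membrane and guards lipids independently of glutathione. It had 129.5, 199 and 146 normalized counts in P1, P2 and P3, against 133, 138 and 95.5 in N1, N2 and N3. P2 was the highest and N3 the lowest, and the sides overlapped. Its unshrunken log2 fold change was 0.36 ± 0.26, and the log2 ratio of its means was 0.37 with all libraries and 0.17 without P2.

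One positive-side library, P2, stood apart for some of the scarcer members. It was the highest of the 6 libraries for 6 of the 9 members with reads per library (Nfe2l2, Nqo1, Osgin1, Mgst1, Prdx4 and Aifm2), against 642 of 2175 genes (29.5%) with means of 20 to 60. N3, a negative-side library, was the lowest for 6 of the 9 (Nqo1, Mgst1, Gpx3, Gpx8, Prdx4 and Aifm2), against 485 of the 2175 (22.3%). All of the 9 members but Osgin1 have means above that range, so the shares of members and background are not fully alike, and the reads of Nfe2l2 are less sure. P2 was also the highest for all 8 meningeal fibroblast markers with reads per library. Fmod, a collagen-binding proteoglycan, had 242, 655 and 212 normalized counts in P1, P2 and P3, against 65.3, 89.9 and 115 in N1, N2 and N3. The 8 markers summed to 1008, 1913 and 729 in P1, P2 and P3, against 445, 606 and 618 in N1, N2 and N3. P2 was the highest, and every positive-side sum lay above every negative-side sum, but much of that gap was Fmod. Without Fmod, a setting added after seeing the data, the lowest positive-side sum was 517 in P3, against the highest negative-side sum of 516 in N2. Of the 8 markers taken singly, 3 (37.5%) had sides that did not overlap (Fmod, Slc6a13 and Slc22a6), beside 16.1% of genes with means of 20 to 60. Most of these markers have means outside that range.

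Over the whole list, 12 of 12 meningeal fibroblast markers had positive values, 4 with an adjusted p under 0.05, and none stood at 0. Over all tested genes 0.328% had an adjusted p under 0.05. Their summed fitted level was 4415 on the positive side, against 2458 on the negative side. Pdgfra was the most abundant of the 12, with 1216 of the summed mean count of 3437 and an unshrunken log2 fold change of 0.65 ± 0.24. Of the 12 choroid plexus markers 11 had positive values, and 1 passed an unadjusted p of 0.05. The 12 had a summed fitted level of 66982 on the positive side, against 21326 on the negative side. Most of that level was Ttr, with 33085 of the summed mean count of 44154. Ttr had an unshrunken log2 fold change of 1.84, with a p of 0.156 in the authors' deposited table. Reads per library were found for 2 of that list. Folr1 had 80.2, 342 and 39.4 normalized counts in P1, P2 and P3, against 36.3, 117 and 13.3 in N1, N2 and N3. Sostdc1 had 175, 109.9 and 59.9 normalized counts in P1, P2 and P3, against 81.7, 204 and 63.7 in N1, N2 and N3. P2 was thus the highest for Folr1 and N2 for Sostdc1, and the sides overlapped for both. Gpx3 had 320.0, 346 and 358 normalized counts in P1, P2 and P3, where the sums of the 8 meningeal markers were 1008, 1913 and 729. The part of meningeal cells in the value of Gpx3 was not tested. The 12 astrocyte markers split into 7 positive and 5 negative values, with a summed fitted level of 128942 on the positive side, against 127476 on the negative side. The 12 endothelial markers also split into 7 and 5, and the 12 hippocampal neuron markers into 6 and 6. At an unadjusted p under 0.05 there were 2 positive and 2 negative astrocyte markers, and 1 and 1 endothelial markers. The neuron markers past that p were 0 positive and 4 negative, where 6.81% of all tested genes passed it. The astrocyte marker Fgfr3 and the endothelial marker Mfsd2a, both positive, had an adjusted p under 0.05. Marker lists of some other cells lay mainly on the negative side, where Gss, Mt3, Gstp1, Prdx1 and Prdx6 also lay. Of the 12 oligodendrocyte markers all were negative, 2 with an adjusted p under 0.05, with a summed fitted level of 230939 on the positive side, against 275706 on the negative side. Of the 10 ependymal markers 9 were negative, with 1192 on the positive side, against 1722 on the negative side. Reads per library were found for 8 ependymal markers, and N2 was the highest library for 7 of these. They summed to 688, 910 and 594 in P1, P2 and P3, against 924, 1578 and 792 in N1, N2 and N3, so the sums overlapped. All 6 tested red blood cell markers were negative, with 4201 on the positive side, against 6174 on the negative side. The part of any of these cells in the values of the members, on either side, was not tested.

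**Figure D4:**
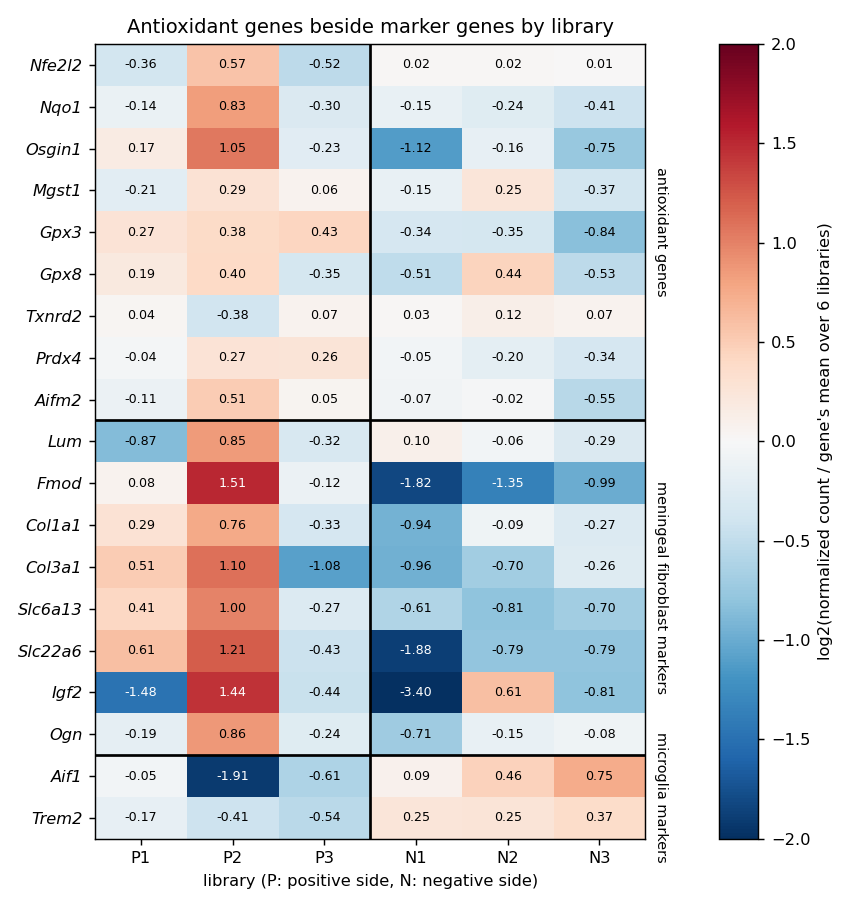
Log2 of the normalized count over the gene's mean of 6 libraries (colour and printed value, colour clipped at 2) for 9 antioxidant genes, 8 meningeal fibroblast markers and 2 microglia markers (rows) in each library (columns, positive side left). P2 is the highest library for all 8 meningeal fibroblast markers and for 6 of the 9 antioxidant genes.

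Other genes of the same pathways were followed in 3 lists, and none of their 111 tested genes had an adjusted p under 0.05 in the authors' deposited table. At an unadjusted p under 0.05 there were 9 (8.11%), 4 positive and 5 negative, beside 6.81% of all tested genes. Reads per library were found for 34 of these genes, and the sides of 6 (17.6%) did not overlap, beside 16.1% of genes with means of 20 to 60. The medians of the lists were -0.03 for 29 NRF2 regulators and other targets, 0.01 for 46 genes of the glutathione and thioredoxin system and -0.02 for 36 ferroptosis regulators.

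Among NRF2 regulators and other targets, Maff, a small MAF partner of NRF2, had 96.1, 126 and 377 normalized counts in P1, P2 and P3, against 125, 57.2 and 70.3 in N1, N2 and N3. P3 alone was far above the others. Its unshrunken log2 fold change was 1.31 ± 0.49, with a p of 0.00713 in the authors' deposited table. Aox1, an aldehyde oxidase, had 198, 209 and 163 normalized counts on the positive side, against 123, 152 and 115 on the negative side, and the sides did not overlap. Its value was 0.55 ± 0.22. Taldo1, of the pentose phosphate pathway, had -0.41 ± 0.19. Mafk, Ptgr1 and Sqstm1 followed with 0.42 ± 0.25, -0.63 ± 0.39 and 0.22 ± 0.14. Hmox1, heme oxygenase and a classical NRF2 target, was added after its values were seen. It had 168, 227 and 246 normalized counts in P1, P2 and P3, against 197, 199 and 284 in N1, N2 and N3, and the sides overlapped.

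In the glutathione and thioredoxin list, Gstt2, a theta-class transferase, had 117, 139 and 73.6 normalized counts in P1, P2 and P3, against 62.6, 54.8 and 50.4 in N1, N2 and N3. The sides did not overlap. Its unshrunken log2 fold change was 0.98 ± 0.31, and the authors' deposited table gives a p of 0.00148, or 0.164 when adjusted. Gstm7 and Glrx3, a transferase and a glutaredoxin, had -0.43 ± 0.14 and -0.33 ± 0.14. Gstm2 had 0.59 ± 0.34, Gstk1 -0.31 ± 0.18 and Ggt7 0.27 ± 0.16. P2 was the highest library for 7 of the 13 genes of this list with reads per library, for 3 of 13 NRF2 regulators and other targets and for 1 of 8 ferroptosis regulators, beside 29.5% of genes with means of 20 to 60. Many of the listed genes have means above that range.

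In the ferroptosis list, Mboat1, a lysophospholipid acyltransferase, had 45.1, 40.8 and 30.8 normalized counts in P1, P2 and P3, against 55.4, 113 and 80.9 in N1, N2 and N3. All positive-side libraries were below all negative-side libraries. Its unshrunken log2 fold change was -1.09 ± 0.37, and the authors' deposited table gives a p of 0.00341, or 0.248 when adjusted. Slc1a5, a glutamine carrier, had 0.74 ± 0.32, and Ptgs2, the inducible cyclooxygenase, had -0.36 ± 0.16. Gch1, which starts the synthesis of tetrahydrobiopterin, had 26.7, 13.3 and 20.5 normalized counts in P1, P2 and P3, against 33.0, 35.2 and 38.5 in N1, N2 and N3. Its value was -0.81 ± 0.45 and missed an unadjusted p of 0.05, although the sides did not overlap. Acsl3 and the transferrin receptor gene Tfrc had 0.35 ± 0.21 and 0.40 ± 0.25.

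**Figure D5:**
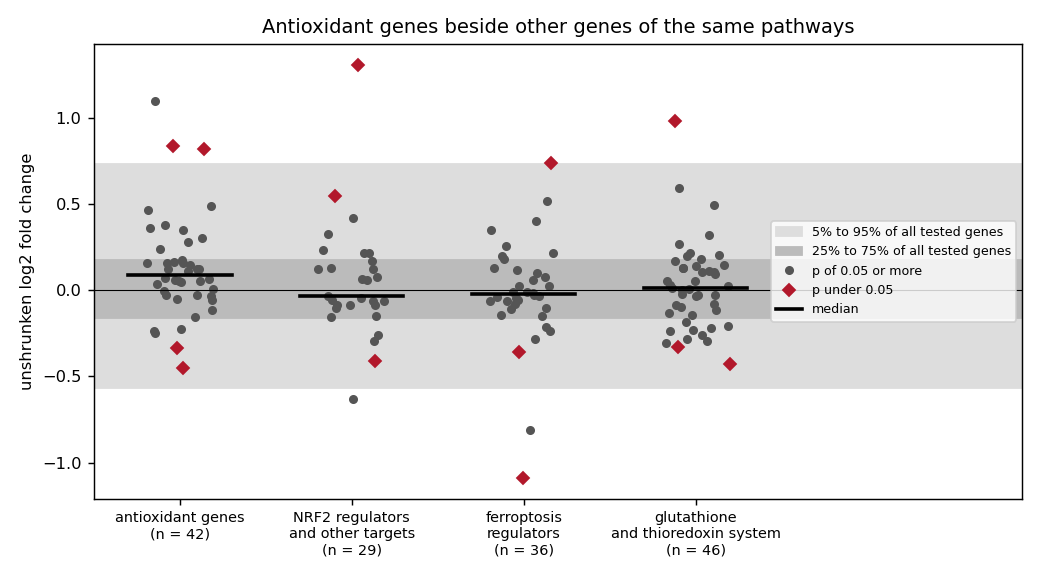
Unshrunken log2 fold change (y axis) of the 42 antioxidant genes and of 3 lists of other genes of the same pathways, each point a gene, diamonds those with an unadjusted p under 0.05, lines the medians, and grey bands the range of all tested genes. The medians lie between -0.03 and 0.09, and most genes lie inside the wider band.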

How the data were processed

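Hippocampal RNA of 6 WT libraries, 3 Visudyne and 3 saline, was made into stranded mRNA libraries and read as 150 bp pairs. The authors ran fastp 0.20.0 for trimming, HISAT2 2.1.0 for alignment and, for gene counts, featureCounts 2.0.1, per the labels' protocols. The submitters' processing notes list DESeq2 1.28.0. For the genome build, the annotation and the strand setting, nothing is given in the sources used here. In the authors' deposited table the mean count is a signal, counts divided by size factors and averaged over the libraries. The deposited fold change and its error are on a log2 scale and shrunken toward 0. The p-value and adjusted p-value are the authors' own.

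From these, a signed z was taken from p. The standard error came from the deposited error less the curvature of a Cauchy prior of scale 0.0357, a shape inferred from the values, and the unshrunken log2 fold change is z times that error. Reads per library were accepted when 1 combination gave the mean to its last digits and met the deposited p, fold change and error, with the next combination at least 4 times worse. This held for 2175 of 2313 genes (94.0%) with means of 20 to 60 and for 9 of the 10 members with means under 350, all but Sod3. It is a share accepted and not a share known to be right. Of the 2313 genes, 2120 had 1 combination to choose from, but among the 9 members only Osgin1 did, and Nfe2l2 had 100. For means of 60 or more the search first covered only libraries within a set fold of their side's level. The search was tested on simulated data, with an outcome that is not reported here. Sides follow the sign of the authors' own fold change, so no library was given a treatment. Intervals are 95%, from a normal distribution.

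The plan named the authors' adjusted p at 0.05, with a count test in its place only if counts per library were given, which they were not. The members and lists were chosen with earlier results of these data known. Full values are given for members with an unadjusted p under 0.05, for regulators, metallothioneins and ferroptosis genes, for members with reads per library, and for up to 6 genes with the smallest p of each list. Exon lengths came from GENCODE mouse release 21, in which all 42 genes were found, and promoters from RefSeq. Scripts ran in Python 3.11.15 (pandas 2.3.3, scipy 1.17.1, numpy 2.4.6), and figures were drawn in matplotlib 3.10.9.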

Additional observations from a re-analysis of the deposited data

How the results depend on the processing

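The count of members called over all genes, 1 as reported, was 2 at an adjusted p under 0.1 (Gpx3 and Ucp2), 0 after dividing z by its SD of 1.09 and 0 with the Benjamini-Yekutieli adjustment; the authors' unadjusted p was under 0.05 for 4 members, and under 0.01 for 2. The adjusted p of Gpx3, 0.0191 as deposited, was 0.0798 with z divided by its SD, 0.199 with Benjamini-Yekutieli, and 0.0313 and 0.0156 over all genes with a p and over genes averaging 1 CPM or more. That of Ucp2 ran between 0.0772 and 0.946 over the 4 settings. The count of called members stayed at 1 over all genes with a p and over genes averaging 1 CPM or more. The median log2 fold change of the members, 0.09, ran between 0.0017 for the deposited shrunken values and 0.12 with the second estimate of the error, a setting added after seeing the data; with the prior scale divided by 2 only 2 members had a value, so none is given. No pathway gene was called under any of the 3 alternatives run. Leaving out each library, added after seeing the data, moved the log2 ratio of the means between -0.46 and 0.16 for Nfe2l2, 0.05 and 0.69 for Nqo1, 0.60 and 1.36 for Osgin1, 0.17 and 0.49 for Aifm2, 0.30 and 0.46 for Prdx4, 0.07 and 0.63 for Gpx8, -0.0036 and 0.31 for Mgst1, -0.23 and -0.02 for Txnrd2 and 0.71 and 0.93 for Gpx3. Count tests with edgeR or DESeq2 over all genes were not run, since reads per library could be worked out only for scarcer genes. No paired analysis was possible because the labels give the libraries no shared replicate numbers and the reconstructed libraries cannot be tied to samples. Reads per library are limited to genes with a mean under 350, and size factors ranged between 0.584 and 1.52, so P3 and N3 carry the most counting error.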
